A study of Mus musculus with 12 samples.

Results

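The hypothalamus of Asmt-knockout mice that had swum (KE) was compared with that of Asmt-knockout mice that had rested (KO), 3 mice in each group, which makes 6 of the 12 mice of the study. Asmt is N-acetylserotonin methyltransferase, the last enzyme of melatonin synthesis. Members were taken by their labels alone: every array labelled KE or KO entered. All 6 mice were male homozygous knockouts derived from C57BL/6, carrying a deletion of 20 bp made with Cas9 and backcrossed for 3 generations, so the resting controls carried the same deletion as the swimmers. KE mice were trained daily for several weeks in a warm water tank without added weight, starting at an age of 6 to 7 weeks, and KO mice were not trained. Both groups had also taken behavioural tests, including a forced swim test. The other 6 mice of the study were wild-type littermates, resting (WT) or swimming, and they served here to estimate the spread. 1 RNA sample per mouse was hybridised to a 1-colour Agilent mouse array with probes of 60 bases.

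Melatonin is made at night, mainly in the pineal gland, and reaches the suprachiasmatic nucleus of the hypothalamus, where its receptors act on the circadian clock. The clock itself is a transcriptional loop in which CLOCK and BMAL1 (gene Arntl) switch on the Period and Cryptochrome genes, whose proteins return to block their own transcription. The hypothalamus also holds the neurons that set feeding, water balance, body temperature, stress hormone release and reproduction, and each of these populations is marked by its own peptide. Exercise raises body temperature and energy use, which bear on chaperones, on immediate-early genes of active neurons and on metabolic genes.

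The knockout was made with 1 guide RNA, shown 5′ to 3′ because the same deletion is in every sample compared. Its position in the genome was not determined here.

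Asmt guide: gcgcctacaccaactcccccc

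Asmt itself gave no usable level. Its 1 probe read 1.89, 1.83 and 1.83 in the 3 KE arrays and 1.88, 1.88 and 1.93 in the 3 KO arrays on the normalized log2 scale, with means of 1.85 ± 0.04 and 1.89 ± 0.03 (SD, n = 3 each). It was not well above background on any of the 6 arrays, so the array neither bears out nor contradicts the labelled genotype.

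The arrays lay on 2 slides, and the slides divided the resting mice. KO 1 and KO 2 shared a slide with all WT arrays (slide 1). KO 3 shared a slide with all KE arrays and those of all wild-type swimmers (slide 2). Each result below is therefore given both against the mean of the 3 KO arrays and against KO 3 alone. The second comparison has 1 resting mouse, whose spread was assumed to be that of the other groups. Spots well above background made up 61.6% to 67.9% of an array over the whole study, and no spot was saturated. A bright control spot that carries no mouse sequence read 12.57 to 13.40 (log2 signal before normalization) on slide 2 and 11.80 to 12.25 on slide 1. Of the spike-in control spots, only E1A_r60_n9 separated the slides likewise, at 14.83 to 15.29 on slide 2 and 14.22 to 14.39 on slide 1. The other spike-in spots overlapped between slides, and E1A_r60_a135 leaned the other way, at 7.17 to 7.69 on slide 2 and 7.66 to 7.87 on slide 1.

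Over the 35230 tested probes, the median absolute log2 difference between 2 KE arrays was 0.0858 to 0.103, and that between KO 1 and KO 2 was 0.0982. KE arrays differed from KO 3 by 0.109 to 0.121. They differed from KO 1 and KO 2 by 0.190 to 0.210, and KO 3 differed from its own group members KO 1 and KO 2 by 0.201 to 0.214. A KE array was thus nearer to the resting mouse on its own slide than that mouse was to the other resting mice. KO 3 was taken as a resting mouse from its label, which no value here checks.

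**Figure D1:**
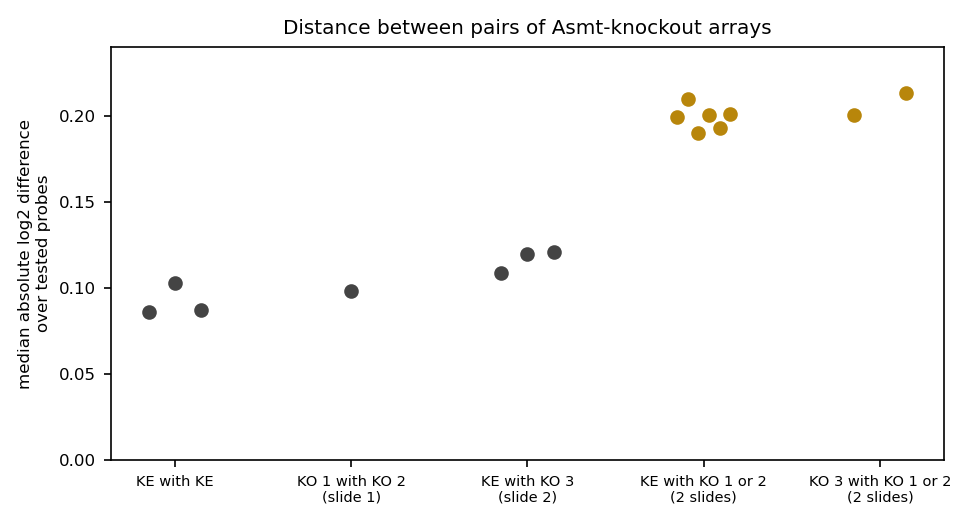
Each point is a pair of Asmt-knockout arrays, and its height is the median absolute log2 difference over the 35230 tested probes. Pairs on 1 slide lie between 0.0858 and 0.121 and pairs on 2 slides between 0.190 and 0.214, whether or not the pair crosses from rest to swimming.

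The tissue carried hypothalamic markers in both groups. All 17 markers of hypothalamic neurons were tested, and their mean level lay between 11.37 and 11.60 in KE and between 11.40 and 11.65 in KO. Single markers were less even, with log2 differences of -0.39 to 1.41 against the 3 KO arrays and of -0.66 to 0.12 against KO 3. Oxt (oxytocin) read 16.59 to 16.92 in KE and 16.65 to 17.27 in KO, Hcrt (orexin) 16.36 to 16.66 and 16.34 to 16.60, and Pmch (melanin-concentrating hormone) 15.15 to 15.20 and 14.57 to 15.29. Of 8 anterior pituitary markers only Tshb and Lhb were bright enough to be tested, and Gh, Prl, Cga, Fshb, Pou1f1 and Pitx1 were not. At the brightest tested probe of each gene, none of the 11 marker lists had a member at the screening criterion in either comparison. Because the samples are whole tissue, fewer cells of a type and less RNA per cell cannot be told apart.

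Most probes called were higher in KE than in KO. The screening criterion asked for a difference of 2-fold or more and for a limma p, not adjusted, of 0.05 or less. It was met by 388 probes higher in KE (1.1% of those tested) and by 38 lower in KE (0.108%). Of the 388, 213 probes carried distinct gene symbols and 175 carried none. After Benjamini-Hochberg adjustment over all probes, 7 probes were left (0.0199%), 3 higher and 4 lower. None was left with 75th percentile scaling, with the KE and KO arrays only, with the methods' t-test, with probes averaged per gene, or without KE 1, KE 2, KO 1 or KO 2, and 1 was left without KE 3. Unadjusted p was under 0.05 for 2831 probes higher and 4597 lower in KE.

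Against KO 3 alone, the criterion was met by 73 probes higher in KE (0.207%) and 96 lower (0.272%). With each array scaled to its 75th percentile instead of quantile-normalized, the split was 124 higher and 76 lower, and with normexp background correction 0 higher and 15 lower. The limma adjusted p was under 0.05 for 9 probes (0.0255%), all lower in KE. Against KO 1 and KO 2, on the other slide, the criterion was met by 1081 probes higher and 106 lower, and 8577 probes had an adjusted p under 0.05. KO 3 itself differed from KO 1 and KO 2 at 4670 probes with an adjusted p under 0.05.

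**Figure D2:**
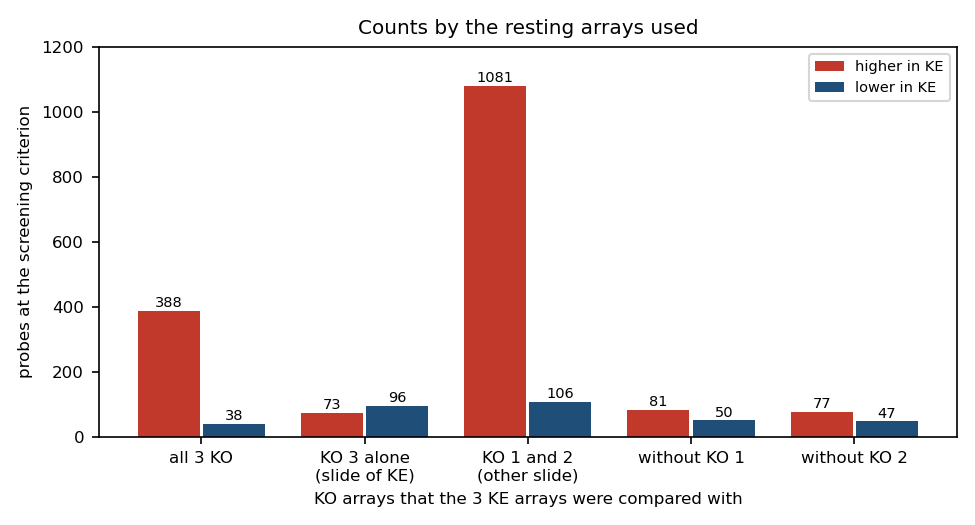
Bars give the number of probes at the screening criterion (a difference of 2-fold or more, with an unadjusted p of 0.05 or less), higher or lower in KE, when the 3 KE arrays are compared with different sets of resting arrays. The count of probes higher in KE is 388 against all 3 KO arrays, 1081 against the pair on the other slide and 73 against the array on the same slide.

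The 388 probes higher in KE had a median log2 fold change of 1.27 against the 3 KO arrays and of -0.05 against KO 3. The 38 lower probes had medians of -1.20 and -0.91. The criterion was met against both references, in the same direction, by 34 probes, 20 higher and 14 lower, which is 7.98% of the 426 probes called against the 3 KO arrays and 20.1% of the 169 probes called against KO 3. Those 34 probes held 23 gene symbols, and 6 of them were well above background on all 6 arrays. The 2 references share the KE arrays and KO 3, so the shared count is a description. Across all tested probes the median difference was -0.04 against the 3 KO arrays and -0.02 against KO 3.

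Per3 was higher in KE at its dimmest tested probe, and its brightest probe did not differ. The gene encodes Period 3, a clock component that belongs to the repressing arm of the loop. Its probe at chr4:150406022-150406081 (mm9, as the arrays' annotation gives it) read 5.85, 5.77 and 5.52 in KE and 4.81, 4.68 and 4.76 in KO 1, KO 2 and KO 3. All 3 KE values lay above all 3 KO values on both slides, and the probe rose by 0.96 (SE 0.10, adjusted p = 0.0357, limma). Against KO 3 the log2 difference was 0.95 (SE 0.14, adjusted p = 0.106). The mean was 5.36 in wild-type swimmers and 5.43 in WT, and the interaction of swimming with genotype was 1.03 on the log2 scale (adjusted p = 0.361). A brighter Per3 probe at chr4:150385608-150385667 read 8.75, 8.91 and 8.66 in KE and 8.68, 8.54 and 8.21 in KO, where KO 1 lay within the KE range. Its log2 difference was 0.29 (SE 0.13, unadjusted p = 0.0416, limma) and 0.56 against KO 3 (unadjusted p = 0.0028). The brightest, at chr4:150378473-150378532, read 8.82, 8.81 and 8.64 in KE and 8.82, 8.75 and 8.65 in KO, with differences of 0.02 and 0.11.

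Phka2, the liver form of the alpha subunit of phosphorylase kinase, which activates glycogen phosphorylase, had the same shape. At chrX:156967675-156967734 its levels were 8.07, 8.17 and 8.14 in KE and 7.39, 7.37 and 7.22 in KO. The probe rose by 0.80 (SE 0.09, adjusted p = 0.0357, limma), and the difference from KO 3 was 0.91 (SE 0.11, adjusted p = 0.0617). The other 3 Phka2 probes did not separate the groups: the nearest, at chrX:156971005-156979355, read 7.02 to 7.18 in KE and 6.98 to 7.11 in KO.

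Med1 fell. Med1 is a Mediator subunit that links nuclear receptors to RNA polymerase II. Its probe read 6.09, 6.13 and 6.14 in KE and 6.68, 6.77 and 6.67 in KO, a log2 change of -0.58 (SE 0.06, adjusted p = 0.0357, limma) and of -0.54 against KO 3 (adjusted p = 0.0973). The 3 other Med1 probes were also lower in KE on average, with means of 5.76 against 6.10 and 10.36 against 10.44 in the dimmer pair and the brightest read 10.98 to 11.02 against 11.05 to 11.22.

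Wscd1, Dcbld2 and Tcl1 were the remaining named genes past the adjusted threshold, all lower. Wscd1, a gene with a WSC domain, read 4.51, 4.70 and 4.36 in KE and 5.45, 5.38 and 5.55 in KO, with a log2 change of -0.94 and of -1.03 against KO 3. Dcbld2, a membrane protein with a discoidin domain, read 4.26, 4.60 and 4.31 in KE and 5.31, 5.23 and 5.10 in KO, with changes of -0.83 and -0.71. Tcl1, a co-activator of the kinase AKT, read 3.75, 3.66 and 3.49 in KE, not well above background on any KE array, and 4.79, 4.43 and 4.40 in KO. Each had an adjusted p of 0.0357 (limma) against the 3 KO arrays and none was under 0.05 against KO 3. All 3 are dim probes, and the brighter probes of Wscd1 and Dcbld2 had means of 8.04 against 8.06 and of 8.26 against 8.38. The 1 further probe past the threshold has no gene symbol.

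**Figure D3:**
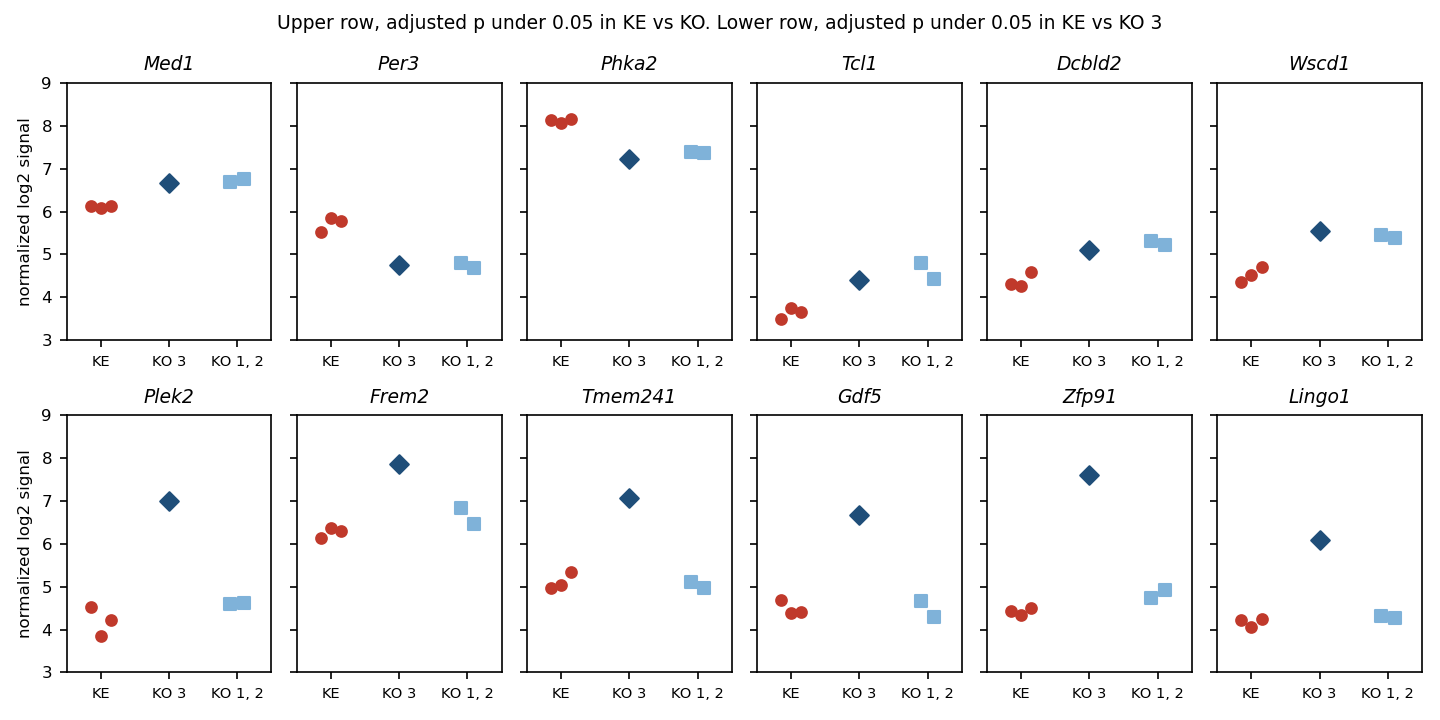
Normalized log2 signal of each array for the 12 named genes with an adjusted p under 0.05 in either comparison, with KE as circles, KO 3 (slide of KE) as a diamond and KO 1 and KO 2 (other slide) as squares. In the upper row KO 3 sits with KO 1 and KO 2, and in the lower row KO 3 alone stands above the other 5 arrays.

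The 6 named genes past the adjusted threshold against KO 3 had the opposite layout. Zfp91, a zinc finger ubiquitin ligase, read 4.33, 4.50 and 4.43 in KE, 4.74 and 4.93 in KO 1 and KO 2, and 7.60 in KO 3. The log2 difference from KO 3 was -3.17 (SE 0.34, adjusted p = 0.0268, limma). Plek2, a pleckstrin family member, read 3.86 to 4.53 in KE, 4.59 and 4.63 in KO 1 and KO 2, and 7.01 in KO 3. Gdf5 (a growth factor of the BMP family) read 4.39 to 4.70 in KE and 6.68 in KO 3. Frem2 (an extracellular matrix protein), Tmem241 and Lingo1 (an inhibitor of myelination) read 7.86, 7.08 and 6.09 in KO 3. In every one of the 6, KO 1 and KO 2 lay nearer to KE than to KO 3, so the call rests on that 1 mouse. Brighter probes of Zfp91 had log2 differences from KO 3 of only 0.01 and -0.04. The other probes of Lingo1, Tmem241 and Gdf5 differed from KO 3 by 0.07, -0.01 and -0.12. A dimmer Frem2 probe was also lower in KE, by -0.40, and Plek2 had no other tested probe.

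Only Hyal2 and Adamts10 carried a gene symbol, were well above background on all 6 arrays and met the criterion against both references. Hyal2 is a hyaluronidase anchored to the cell surface. Its probe at chr9:107474225-107474284 read 4.87, 5.23 and 4.43 in KE and 6.78, 6.65 and 5.98 in KO. The groups did not overlap, with means of 4.84 ± 0.40 and 6.47 ± 0.43 (SD), a 3.08-fold difference lower in KE (log2 -1.62, SE 0.32, adjusted p = 0.104, limma) and a 2.20-fold difference against KO 3. A brighter Hyal2 probe read 11.66 to 11.82 in KE and 11.79 to 12.06 in KO. In wild-type mice the same dim probe had means of 5.31 in swimmers and 6.82 at rest, and the interaction was -0.12 (adjusted p = 0.967). Adamts10, a secreted protease of microfibrils, read 6.89, 6.65 and 5.38 in KE and 4.97 to 5.40 in KO. KE 3 fell within the KO range, the log2 difference was 1.18 (SE 0.33) and 1.34 against KO 3, and 3 other probes of the gene had KE means above the KO means by 0.30 or less.

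Other probes met the criterion against both references but were dim in a group. Of these, Dbh is given by the rule for its list and Eps8l1 was chosen after its values were seen. Eps8l1, an actin regulator related to EPS8, read 5.95, 5.53 and 6.48 in KE and 3.72, 4.08 and 4.19 in KO, and was well above background on KO 3 alone of the KO arrays. The log2 difference was 1.79 against KO 3, and against the 3 KO arrays the level was at least 3.30-fold higher (adjusted p = 0.0778, limma). The means of wild-type swimmers and WT were 5.50 and 5.92. Dbh, the enzyme that turns dopamine into noradrenaline, read 5.03, 6.90 and 5.09 in KE and 4.35, 4.33 and 4.04 in KO, where 1 array was well above background, and it was at least 2.62-fold higher (at least 2.87-fold against KO 3). KE 2 stood apart in Dbh, and in the dopamine transporter Slc6a3 too, which read 11.87 in KE 2 and 9.13 to 9.89 on the other 5 arrays. Whether the KE 2 sample held other tissue was not tested.

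Probes dim in a whole group allow only bounds. Oca2, a melanosomal transporter, was not well above background on any KO array. The KE level exceeded the KO level at least 2.98-fold (at least 3.20-fold against KO 3), with KE values of 5.22, 6.32 and 5.95. The predicted gene Gm2511 was at least 2.55-fold higher and Krtap31-1, a keratin-associated protein, at least 1.87-fold higher. Bcl11b, a transcription factor of projection neurons, had a probe not well above background on any KE array. That probe was at least 1.53-fold lower, with KO values of 4.49, 5.08 and 4.81. The 1 other Bcl11b probe is brighter and was also lower on average, with a limma p not under 0.05. It is among 11 striatal markers, whose lowest log2 difference against the 3 KO arrays was -0.49. The transcript 1700001P01Rik was at least 1.52-fold lower and Afm, a vitamin E carrier, at least 1.47-fold lower. In all, 11 probes with a symbol were bounded as higher and 5 as lower.

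Among named probes well above background on all 6 arrays, the 5 with the largest higher values in KE did not keep them against KO 3. Igfbp5, which binds insulin-like growth factors, read 7.65, 7.42 and 7.17 in KE, 4.64 and 4.53 in KO 1 and KO 2, and 7.53 in KO 3. Its log2 difference was 1.85 against the 3 KO arrays and -0.12 against KO 3, and a brighter Igfbp5 probe read 11.82 to 11.85 in KE and 11.74 to 12.00 in KO. The same layout held for Gm12504 (2.00 and -0.18), Gm31482 (1.81 and -0.10), 4933431I19Rik (2.45 and 0.30) and Paip2b, a repressor of poly(A)-binding protein (1.75 and -0.31). Bpifa1 and Bpifb1 are secreted proteins of the airway. Bpifa1 read 8.49, 7.74 and 7.78 in KE, 11.42 and 10.20 in KO 1 and KO 2, and 7.90 in KO 3 (-1.84 and 0.10), and Bpifb1 differed by -1.40 and -0.12. Veph1 and the transcript 8430408G22Rik were lower against both references, by -1.10 and -0.69 and by -1.44 and -1.15.

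Probe make-up and annotation also differed in the sets called. Probes of the 388 held on average 20.0 adenines in 60 bases and those of the 38 held 14.8, against 17.0 over all tested probes. Probes without a gene symbol made up 45.1% of the 388 and 13.6% of all, and long non-coding RNA probes made up 21.1% of the 38 and 5.92% of all. Against KO 3 the higher and lower sets held 18.5 and 17.3 adenines. The part of probe make-up in the calls was not tested.

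Gene lists were described at the brightest tested probe of each gene. Each count of list genes below is to be read beside the shares over all genes that follow here. Over the 18266 genes so represented, unadjusted p was under 0.05 in 6.75% higher in KE and 13.1% lower against the 3 KO arrays, and in 2.78% higher and 3.32% lower against KO 3. None of the 29 lists had a member with a limma adjusted p under 0.05 in either comparison. With 1 array left out, the number of all tested probes at an unadjusted p under 0.05 itself ran from 1276 to 5436 higher and from 2564 to 8078 lower against the 3 KO arrays, lowest without KO 2 and highest without KO 3. The list median was below 0 in 24 lists against the 3 KO arrays and in 21 against KO 3.

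**Figure D4:**
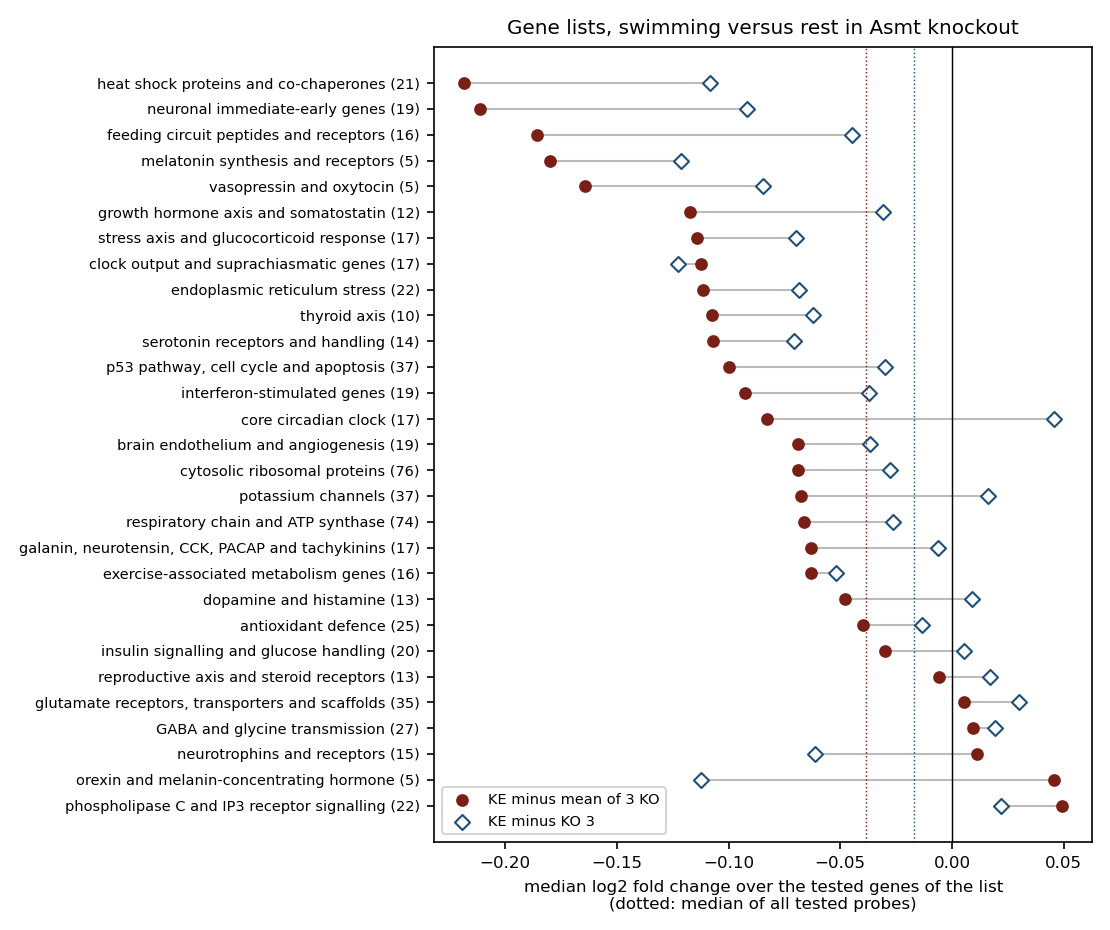
Median log2 fold change over the tested genes of each of 29 lists, with the number of genes in parentheses, against the mean of the 3 KO arrays (filled circles) and against KO 3 (open diamonds). Dotted lines mark the medians of all tested probes, -0.04 and -0.02. Heat shock genes and immediate-early genes lie lowest against the 3 KO arrays, at -0.22 and -0.21, and nearer to 0 against KO 3, at -0.11 and -0.09.

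Heat shock genes lay lower in KE as a group. HSF1, set free when proteins unfold, binds heat shock elements and switches on the HSP70 genes and their co-chaperones. All 21 listed genes were tested, 11 (against 13.1% of all genes) had an unadjusted p under 0.05, each lower in KE, and 0 of 21 passed against KO 3. The median was -0.22 and -0.11. With 1 array left out at a time, 7 to 15 passed, and with 75th percentile scaling 12 against the 3 KO arrays and 3 against KO 3. Hspa1b was the only member at the criterion.

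Hspa1b is an inducible HSP70. Its probe at chr17:35093374-35093405 (mm9) read 9.26, 8.51 and 8.30 in KE and 9.82, 9.99 and 9.33 in KO. Every KE value lay below every KO value, with means of 8.69 ± 0.51 and 9.71 ± 0.34 (SD), a log2 difference of -1.02 (SE 0.31, adjusted p = 0.160, limma) and of -0.64 (SE 0.42) against KO 3. The mean was 9.71 in wild-type swimmers and 9.15 in WT. Hspa1a, a near-identical neighbour, read 11.88, 11.60 and 11.47 in KE and 12.12, 12.30 and 11.85 in KO, so its KE 1 value overlapped KO 3. Because the coding sequences of Hspa1a and Hspa1b are almost the same, their probes may share signal.

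Co-chaperones had smaller differences. Dnajb1, which delivers clients to HSP70, read 14.44, 14.25 and 14.25 in KE and 15.22, 15.22 and 14.69 in KO, a log2 difference of -0.73 (SE 0.18, adjusted p = 0.137, limma) and of -0.37 against KO 3. The following members were picked after their values were seen. Dnaja1 differed by -0.28 and -0.18, Hsph1, a nucleotide exchange factor of HSP70, by -0.34 and -0.14, and Ahsa1, an activator of HSP90, by -0.30 and -0.11. Hsp90aa1, inducible HSP90, read 15.35 to 15.59 in KE and 15.59 to 15.86 in KO and missed the unadjusted threshold. Hspa4 and Hspa4l, which belong to the same HSP110 family as Hsph1, read 12.33 to 12.35 against 12.29 to 12.39, and 12.95 to 13.00 against 12.86 to 13.00.

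**Figure D5:**
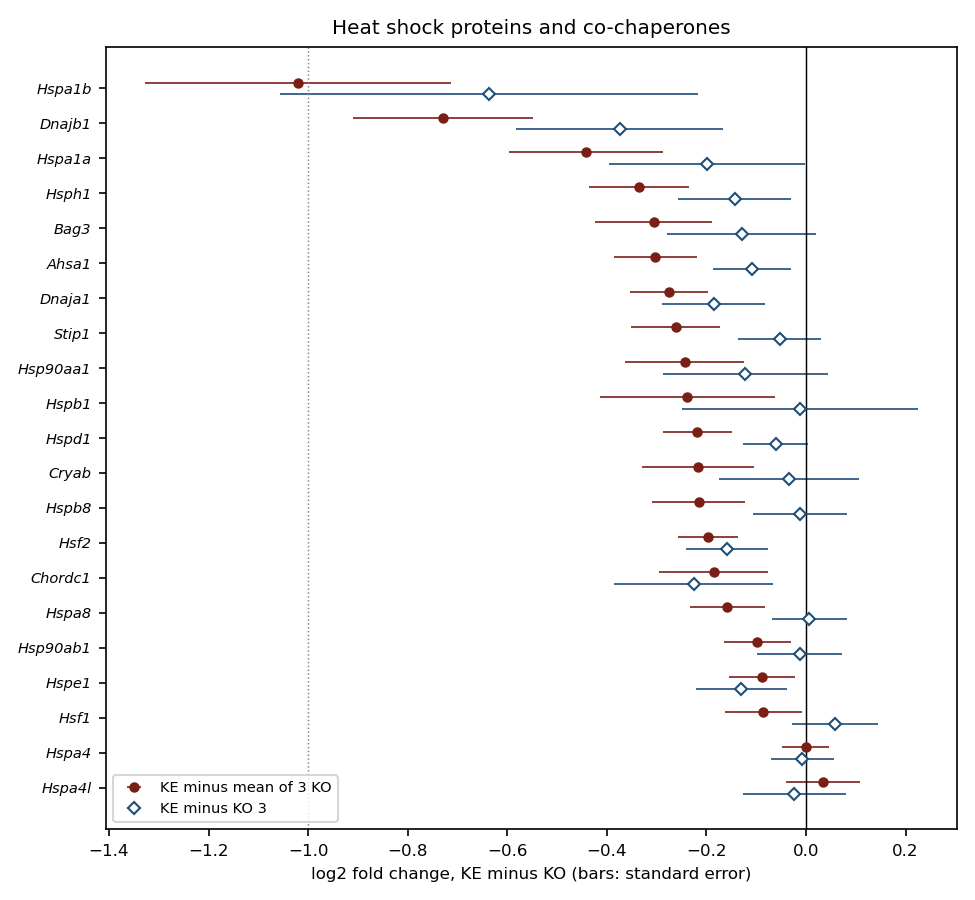
Log2 fold change of the 21 heat shock genes at their brightest probe against the mean of the 3 KO arrays (filled circles) and against KO 3 (open diamonds), with standard errors; the dotted line marks a 2-fold decrease. Hspa1b, Dnajb1 and Hspa1a lie farthest below 0, at -1.02, -0.73 and -0.44, and at -0.64, -0.37 and -0.20 against KO 3.

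The heat shock element core, GAANNTTC, reads the same on both strands and was searched in the 250 bases before each RefSeq transcript start (GRCm38.p6). It was found for 6 of the 16 list genes that have a promoter in the RefSeq table (37.5%): Hspa1b, Hspa1a, Dnaja1, Hspb1, Hspd1 and Hspe1. The RefSeq promoters cover 27025 genes, of which 7.73% have it in a window of that length. Of these 6 genes, 4 are among the 11 with an unadjusted p under 0.05, out of 21 genes in the whole list. A link between the core and the difference was not tested. Promoters of Hspa1b, Dnaja1 and Hspb1, whose genes differed by -1.02, -0.28 and -0.24, are shown as examples of the inducible HSP70, co-chaperone and small heat shock protein classes, with the cores in capitals. Hspa1a, which differed by -0.44, also holds 1 core, and of 3 Dnaja1 promoters in the table only the one shown holds a core.

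Hspa1b (chr17:34959239-34959488, minus strand): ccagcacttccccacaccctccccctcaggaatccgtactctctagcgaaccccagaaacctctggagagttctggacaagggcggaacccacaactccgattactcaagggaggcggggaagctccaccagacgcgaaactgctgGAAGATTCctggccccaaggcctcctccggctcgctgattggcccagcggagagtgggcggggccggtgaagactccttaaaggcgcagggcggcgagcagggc
Dnaja1 (chr4:40722218-40722467, plus strand): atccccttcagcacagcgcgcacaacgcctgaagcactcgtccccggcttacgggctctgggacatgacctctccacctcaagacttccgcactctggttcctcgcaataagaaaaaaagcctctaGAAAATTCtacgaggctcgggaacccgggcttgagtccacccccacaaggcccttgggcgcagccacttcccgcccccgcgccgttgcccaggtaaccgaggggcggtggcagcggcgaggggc
Hspb1 (chr5:135887669-135887918, plus strand): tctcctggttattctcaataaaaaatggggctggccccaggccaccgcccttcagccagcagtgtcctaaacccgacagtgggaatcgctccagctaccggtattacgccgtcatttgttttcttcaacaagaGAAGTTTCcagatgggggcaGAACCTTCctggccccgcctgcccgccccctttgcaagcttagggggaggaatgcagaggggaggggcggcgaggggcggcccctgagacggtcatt

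The Hspa1b core starts 104 bases before the transcript start, that of Dnaja1 124 bases before, and the 2 of Hspb1 117 and 97 bases before. Hspb1, a small heat shock protein with 2 cores, read 12.56, 12.28 and 12.25 in KE and 12.39, 13.04 and 12.37 in KO, so that KO 2 alone lay outside the KE range.

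Immediate-early genes, switched on within minutes of neuronal firing, had a median of -0.21 against the 3 KO arrays and of -0.09 against KO 3. Of 19 tested, 4 were lower and 1 higher at an unadjusted p under 0.05 against the 3 KO arrays, and 0 against KO 3. Over all genes 13.1% were lower and 6.75% higher against the 3 KO arrays. Without KE 2 or without KO 2 none of the list passed. Egr1, a transcription factor of recently active neurons, read 10.53, 10.43 and 10.54 in KE and 11.61, 11.24 and 10.94 in KO. Its groups did not overlap, with differences of -0.76 (SE 0.29) and -0.44. Fos read 9.23, 8.88 and 9.21 in KE and 10.63, 9.41 and 9.59 in KO, with KO 1 highest, and differences of -0.77 and -0.49 that did not pass.

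Fosb, a member of the Fos family that accumulates with repeated activity, read 7.11, 6.80 and 6.63 in KE and 7.43, 7.42 and 7.36 in KO. It was chosen after its values were seen, as was Jund, a Jun family member that is present at rest and was the 1 gene higher at an unadjusted p under 0.05 (14.16, 14.40 and 14.36 against 14.21, 14.09 and 14.08). Arc and Npas4, both induced by synaptic activity, read 10.16 to 10.36 against 10.23 to 10.55 and 8.44 to 8.85 against 8.30 to 8.64, and the Npas4 difference of 0.21 did not pass. The cAMP response element TGACGTCA, which also reads the same on both strands, was found in 2 of 20 promoters of these genes (10%: Btg2 and Dusp1) and in 1.55% of all.

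No core clock gene met the criterion at its brightest probe. Of 17 tested at the brightest probe, 3 were lower at an unadjusted p under 0.05, none higher, and none passed against KO 3. Over all genes 13.1% were lower at that threshold against the 3 KO arrays. The list median was -0.08 against the 3 KO arrays and 0.05 against KO 3, and the latter turned below 0 with 75th percentile scaling. Per1 read 12.60, 12.78 and 12.83 in KE and 13.21, 12.96 and 12.58 in KO, and Per2 10.88, 10.85 and 10.93 against 11.11, 11.07 and 10.79. In both genes KO 3 was the lowest of the 6 arrays. Arntl read 9.93 to 10.02 against 9.96 to 10.23. Cry1, a repressor partner of the Period proteins, read 6.19, 5.64 and 5.77 in KE, 4.32 and 4.55 in KO 1 and KO 2, and 6.29 in KO 3. Its difference was 0.82 against the 3 KO arrays and -0.42 against KO 3, and neither passed.

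Clock output genes held 2 higher and 2 lower members of 17, and 1 lower against KO 3. The threshold was an unadjusted limma p under 0.05. Against the 3 KO arrays 6.75% of all genes met it higher in KE and 13.1% lower. Ciart, a repressor controlled by the clock and named here after its values were seen, read 7.56, 7.74 and 8.01 in KE and 7.32, 7.26 and 7.42 in KO, a difference of 0.44 (SE 0.12, adjusted p = 0.154, limma) and of 0.35 against KO 3. Hlf, a PAR-domain transcription factor, read 9.67, 9.74 and 9.78 against 9.89, 9.87 and 9.95, with differences of -0.17 and -0.22. Its relative Dbp, whose level swings widely over the day, read 13.84, 13.93 and 14.22 in KE and 13.97, 13.85 and 13.62 in KO and overlapped. The E-box CACGTG, the site of CLOCK and BMAL1, was found in 3 of 21 core clock promoters (14.3%: Bhlhe41, Cry1 and Per1), not in those of Per3, and in 6.02% of all promoters. The time of day at which each mouse was killed is not given in the sources used here.

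At the brightest probe of all 18266 genes, 118 met the criterion higher in KE and 16 lower against the 3 KO arrays. Of 37 tested genes of the p53, cell cycle and apoptosis list, 1 met the criterion in each direction against the 3 KO arrays, and Cdkn1a was the lower one. It encodes p21, which halts the cell cycle and is induced by p53 and by glucocorticoids. Its probe at chr17:29237377-29237436 read 8.76, 8.68 and 8.27 in KE and 9.39, 10.24 and 9.23 in KO. The groups did not overlap, KO 2 was highest, and the difference was 2.07-fold, lower in KE (log2 -1.05, SE 0.25, adjusted p = 0.135, limma) and -0.66 against KO 3. Wild-type swimmers and WT had means of 9.18 and 9.08.

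Mdm4, an inhibitor of p53, read 9.26, 9.27 and 9.05 in KE and 8.64, 8.52 and 8.82 in KO. Its difference was 0.53 (SE 0.12, adjusted p = 0.118, limma) and 0.37 against KO 3, the same way on both slides, while 2 of its 5 other probes went the other way. Trp53 itself read 7.38, 7.57 and 7.73 against 7.91, 7.83 and 7.87, and Mdm2 12.71 to 12.77 against 12.81 to 12.91. Fas, Chek1 and Pidd1, chosen after their values were seen, read 8.04 to 8.31 against 8.48 to 8.95, 3.83 to 4.47 against 4.59 to 5.27, and 6.51 to 6.56 against 6.69 to 6.85. The authors report Pidd1 in the other direction, as up-regulated after swimming in knockout mice. Their probe may differ from the brightest one used here. They also list Chek1, Cdkn1a, Mdm4, Pidd1 and Hspa1b among the genes that qRT-PCR did not verify. For Eps8l1 and Plcb2 they report qRT-PCR that matched their arrays, with both lower in knockout than in wild-type mice. A part of both genes in the effect of swimming they leave to further work. At an unadjusted p under 0.05 the list held 2 higher and 8 lower genes, and 2 higher and 0 lower against KO 3. With 1 array left out, 1 to 5 were higher and 5 (without KE 1 or KO 2) to 15 (without KO 3) were lower. Over all genes 6.75% were higher and 13.1% lower at that threshold against the 3 KO arrays. The list median was -0.10 and -0.03.

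The peptides that define hypothalamic neurons overlapped between groups in most cases. Avp (vasopressin) read 14.67 to 14.96 in KE and 14.80 to 15.29 in KO. Pomc, the precursor of the satiety peptide alpha-MSH, read 13.35, 13.28 and 12.97 in KE and 13.84, 13.42 and 13.51 in KO, below all KO values, with differences of -0.39 (SE 0.24) and -0.31 of which neither passed. Agrp and Npy, made by the opposing hunger neurons, read 11.54 to 12.04 against 11.70 to 12.26 and 10.74 to 11.10 against 10.86 to 11.39. Crh, which starts the stress hormone cascade, read 10.65, 10.39 and 11.02 against 9.28, 10.72 and 10.27. Sst (somatostatin) read 15.61, 15.43 and 15.30 against 15.08, 14.96 and 15.35, higher than KO 1 and KO 2 only. Among all genes 6.75% were higher and 13.1% lower at an unadjusted limma p under 0.05 against the 3 KO arrays. Of 16 tested genes of the feeding circuit, 1 was higher and 2 lower at an unadjusted p under 0.05, and none against KO 3.

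Several receptor and hormone-handling genes kept their direction and an unadjusted p under 0.05 against both references. They were named after their values were seen, except Dio2, Drd2 and Sstr2, which are among the first members of their lists. Dio2, the deiodinase that makes active thyroid hormone in tanycytes and astrocytes, read 9.80, 9.75 and 9.55 in KE and 10.46, 10.41 and 10.04 in KO, a difference of -0.61 (SE 0.11, adjusted p = 0.0983, limma) and of -0.34 against KO 3. Sstr2, a somatostatin receptor, read 6.38, 6.34 and 6.39 against 6.95, 6.94 and 6.81 (-0.53, SE 0.09, adjusted p = 0.0923, and -0.44). Drd2, an inhibitory dopamine receptor, read 5.18, 5.53 and 5.41 against 5.68, 5.84 and 6.08 (-0.49 and -0.70).

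Other receptors showed the same layout. Htr4, a serotonin receptor, read 8.18, 8.08 and 8.10 in KE and 8.47, 8.54 and 8.40 in KO (-0.35 and -0.28). Mchr1, the receptor for melanin-concentrating hormone, read 6.12, 6.01 and 5.93 against 6.49, 6.44 and 6.56 (-0.48 and -0.55). Esr2, estrogen receptor beta, was higher, at 11.21, 11.27 and 11.10 against 10.85, 10.76 and 10.70 (0.42 and 0.49). In all 6 genes every KE value lay outside the KO range on both slides. They were gathered by their p-values in these same arrays, so this separation is no further evidence. The share of all genes that pass against both references was not counted. The melatonin receptor Mtnr1a, which read 6.47, 5.98 and 5.86 against 6.33, 6.81 and 6.67, overlapped. Its difference of -0.50 against the 3 KO arrays had an unadjusted p under 0.05, and that of -0.57 against KO 3 missed this threshold. Aanat, the melatonin enzyme upstream of Asmt, read 8.33 to 8.52 against 8.20 to 8.51.

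The potassium channel list held 3 higher and 5 lower genes of 37 against the 3 KO arrays at an unadjusted limma p under 0.05. Over all genes those shares were 6.75% and 13.1%. The list median was -0.07 against the 3 KO arrays and 0.02 against KO 3. Single differences did not shrink against KO 3: they ran from -0.31 to 1.35 against the 3 KO arrays and from -0.55 to 1.36 against KO 3. Kcnq5, a channel of the M-current that restrains firing, read 10.59, 10.42 and 10.36 in KE and 8.72, 8.61 and 9.98 in KO. All KE values were above KO 3 and farther above KO 1 and KO 2, and the difference was 1.35 (SE 0.29) against the 3 KO arrays and 0.48 (SE 0.13) against KO 3. Of the 2 other Kcnq5 probes, 1 read 8.26 to 8.54 in KE and 8.35 to 8.48 in KO, and the dimmer one differed by 0.02. Kcnh7, a channel of the ERG family, read 5.10, 4.96 and 4.83 against 4.11, 4.62 and 3.60 and was well above background on KO 2 alone of the KO arrays. Against KO 3, where it was not, it was at least 1.76-fold higher. Kcnn3, a calcium-gated channel named after its values were seen, read 7.52, 7.47 and 7.53 against 7.76, 7.71 and 7.77 (-0.24 and -0.26).

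Phospholipase C and IP3 receptor genes, which release calcium from internal stores, had 3 higher members of 22 against the 3 KO arrays, Plcd4, Itpr3 and Plcb4, and 1 against KO 3, Ryr3. These counts are at an unadjusted limma p under 0.05, which 6.75% of all genes met higher in KE against the 3 KO arrays. Plcd4 read 14.67, 14.62 and 14.45 in KE, 13.49 and 13.43 in KO 1 and KO 2, and 14.60 in KO 3. Plcb2 read 7.34, 7.31 and 7.52 in KE, 6.69 and 6.75 in KO 1 and KO 2, and 7.73 in KO 3, with differences of 0.33 and -0.34. Itpr2 read 11.56 to 11.60 against 11.37 to 11.55. Among transmission genes, Gad1, which makes GABA, read 13.89, 13.89 and 14.05 against 13.80, 14.02 and 13.70, and Slc17a6, the vesicular glutamate transporter of hypothalamic neurons, read 13.06 to 13.14 against 13.12 to 13.39.

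Genes tied to exercise in muscle and liver had a median of -0.06 against the 3 KO arrays and of -0.05 against KO 3. Of 16 tested, 4 were lower, and none passed against KO 3. That count is at an unadjusted limma p under 0.05, which 13.1% of all genes met lower in KE against the 3 KO arrays. Ppargc1a, which drives mitochondrial growth, read 10.96, 11.25 and 11.48 in KE and 10.99, 11.07 and 10.99 in KO, with KE 1 below the KO range. Fndc5, the irisin precursor, read 13.02 to 13.18 against 13.10 to 13.17. Bdnf, a neurotrophin, read 9.16, 9.20 and 8.93 against 9.50, 9.32 and 9.46, below all KO values, with differences of -0.33 (SE 0.15) and -0.36 that did not pass. Pdk4, a brake on glucose oxidation named after its values were seen, read 8.47, 8.49 and 8.51 against 8.92, 9.46 and 8.69 (-0.54 and -0.20).

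Ribosomal protein genes, the longest list, held many small differences. Of 76 tested, 27 were lower (against 13.1% of all genes) and 6 higher (against 6.75%) at an unadjusted p under 0.05, with a median of -0.07, and 0 passed against KO 3, where the median was -0.03. With 75th percentile scaling, 10 were lower against KO 3. Leaving out 1 array gave 6 to 37 lower and 0 to 12 higher. Rps9 read 15.35, 15.36 and 15.43 in KE, 15.88 and 15.84 in KO 1 and KO 2, and 15.44 in KO 3, and Rps25 read 15.69, 15.66 and 15.61, 14.99 and 14.77, and 15.68. Both were picked after their values were seen, and in both KO 3 read as KE did. Respiratory chain genes held 3 higher and 8 lower of 74 against the 3 KO arrays (0 to 15 and 2 to 28 with 1 array left out) and 0 against KO 3.

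Endoplasmic reticulum stress genes, whose chaperones fold secreted proteins, held 7 lower of 22 against the 3 KO arrays and 0 against KO 3, with medians of -0.11 and -0.07. With 1 array left out, 3 (without KO 2) to 9 (without KO 3) were lower. Hspa5, their main chaperone, differed by -0.11 against both references. Interferon-stimulated genes held 6 lower of 19 and 0 against KO 3, with medians of -0.09 and -0.04. With 1 array left out, 3 (without KE 2) to 9 (without KE 1) were lower, and 0 to 3 against KO 3 (3 without KE 1). Ifi27, chosen after its values were seen, read 13.26, 13.18 and 13.14 against 13.61, 13.48 and 13.36. Antioxidant genes held 3 lower of 25 and 1 lower against KO 3. Sod2 read 12.27 to 12.45 against 12.23 to 12.48. These lists are to be read beside the 13.1% of all genes that were lower against the 3 KO arrays.

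Marker lists of other cell types had medians as far from 0 as several lists above. The median was -0.16 against the 3 KO arrays and -0.23 against KO 3 for 5 blood markers, -0.17 and -0.07 for 9 markers of ependymal cells and tanycytes, and 0.14 and 0.15 for 9 markers of cortical and thalamic neurons. Of 15 oligodendrocyte markers 3 were higher, Mag, Ermn and Olig2, and 0 passed against KO 3. Here too the threshold was an unadjusted limma p under 0.05, which 6.75% of all genes met higher against the 3 KO arrays. Ermn, a myelin protein, read 13.93, 14.05 and 14.03 in KE, 13.21 and 13.13 in KO 1 and KO 2, and 14.01 in KO 3. Blood markers had mean levels of 12.86 to 13.27 in KE and 12.63 to 13.84 in KO, with KO 2 highest. Without KO 1 all 5 blood markers were lower in KE at an unadjusted p under 0.05, with a median of -0.47, and without KO 2 none passed and the median was 0.07. The choroid plexus marker Ttr ranged from 5.53 in KO 1 to 9.63 in KO 2, a wider spread than the 7.49 to 8.38 of KE. The part of these tissues in the results above was not tested.

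Whether swimming acted otherwise in knockout than in wild-type mice was asked with the interaction term, the KE minus KO difference less the same difference in wild-type mice. No probe passed (smallest adjusted p = 0.361, limma), and 2729 probes had an unadjusted p under 0.05. All arrays of wild-type swimmers lie on slide 2 and all WT arrays on slide 1, so the wild-type side of this contrast cannot be told apart from the slide. For Hspa1b the interaction was -1.57 (adjusted p = 0.521) and for Cdkn1a -1.15 (adjusted p = 0.554).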

How the data were processed

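Hypothalamic RNA of 12 mice was measured on 1-colour Agilent arrays. Spots were read with Agilent Feature Extraction 10.7.1.1, per the submitters' processing notes. The authors deposited the scanner files, with processed signal intensity and background flags for every spot, and a table of log2 values that they had quantile-normalized over the 12 arrays. Those log2 values were used as deposited. 4 tables of the authors' own comparisons, with fold changes, p-values and 24 columns of values per sample, were not used.

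The 140 control rows were left out, and following the methods, probes flagged well above background throughout any 1 of the 4 groups were tested (35230 of 56605 probes). The linear model of limma 3.58.1 (R 4.3.3; lmFit, eBayes) had a mean for each group over all 12 arrays, and KE minus KO was its contrast. For the comparison with the resting array on the slide of the KE arrays, that array formed a group of its own, which equals the slide as a fixed block. P-values were adjusted over all tested probes by the Benjamini-Hochberg method. The criterion of a 2-fold change with an unadjusted p of at most 0.05 follows the methods. The fit was also run on simulated data with known changes and no slide difference. That run does not speak to the slide split of the real arrays. Array counts limit the precision.

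Genes were named by a rule: Asmt; among probes with a symbol that were well above background on all 6 arrays, those at the criterion against both references and the 5 largest differences at the criterion in each direction; probes with an adjusted p under 0.05; the 3 largest bounds in each direction; and, in each of 29 lists, members at the criterion and the first 4 members. 1 gene that the rule names is not reported here. A listed gene is represented by its brightest tested probe. A bound sets the bright group against the higher of the dim probe's own value and the lowest signal well above background on each array of the dim group; dim arrays of a partly dim group were treated likewise. The groups compared, the lists and the rule were chosen with earlier results of these data known. Probe positions are on mm9 as deposited, and whether a probe lies in an exon or UTR was not annotated here. Promoters are from RefSeq on GRCm38.p6.

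Alternatives were the scanner signal without outlier spots, scaling to the 75th percentile, normexp background correction (offset 50), other probe filters, the 6 KE and KO arrays alone, the methods' t-test, slide and replicate blocks, probes averaged per gene, and each array left out.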

Additional observations from a re-analysis of the deposited data

How the results depend on the processing

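The count of probes at the criterion in KE versus KO (426) was 124 with normexp, 1015 with no filter, 242 with probes bright on all 6 arrays, 146 with the KE and KO arrays only, 57 with the methods' t-test, 169 with the slide block and 119 per gene. It ran from 124 to 1187 with 1 array left out: 131 without KO 1, 124 without KO 2, 1187 without KO 3 and 255 without KE 1. The count with a limma adjusted p under 0.05 (7) was 0 with 75th percentile scaling, with the KE and KO arrays only, with the methods' t-test and per gene, 3 with normexp and 19 with no filter. It ran from 0 (without KE 1, KE 2, KO 1 or KO 2) over 1 (without KE 3) to 8577 (without KO 3). With the slide block it was 9, of which 0 were among the 7. Against KO 3 the count at the criterion (169) was 15 with normexp, 1221 with no filter, 44 with probes bright on all 6 arrays and 49 per gene, and 160 to 199 with 1 array left out. The adjusted count there (9) was 1 with 75th percentile scaling, 43 with normexp, 504 with no filter, 3 with probes bright on all 6 arrays, 0 with the KE and KO arrays only and 3 per gene, and 2 to 5 with 1 array left out (2 without KE 1, KO 1 or KO 2, 5 without KE 2, 4 without KE 3). The causes were not tested.

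Of the 21 called genes named, the number still called was 8 with normexp, 10 with the KE and KO arrays only, 6 with the methods' t-test, 3 with the slide block, 10 per gene and 6 to 21 with 1 array left out. With the slide block the sign turned for Gm12504 (-0.18), Igfbp5 (-0.12), Gm31482 (-0.10), Paip2b (-0.31) and Bpifa1 (0.10). Of 431 single-gene values under the alternatives, 244 kept their direction and their side of the threshold, 182 kept the direction only and 5 turned.

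KE and KO replicates share only a number: deviations of same-numbered arrays correlated at -0.05, 0.01 and -0.005. With the replicate number as a block, 394 probes met the criterion and 0 had an adjusted p under 0.05 against the 3 KO arrays, and 197 and 4 against KO 3. Dim probes limit the rest: 239 of the 426 probes were well above background on all 6 arrays.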
